A study of Homo sapiens with 6 samples.

Results

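The cadherins, protocadherins and catenins of U373 cells, a human glioblastoma line, were followed on 6 Affymetrix Human Genome U95 Av2 arrays. The members were all probe sets whose single gene symbol in the platform annotation starts with CDH or PCDH followed by a digit, letter or dash, or with CTNN. This gave 53 probe sets for 35 genes, out of 12558 probe sets that are not controls. 23 genes were read by 1 probe set and 12 by several, which are numbered here from the brightest down by mean signal. Probe sets annotated with several symbols were not named as members, and 4 of these held a cadherin or catenin.

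1 array stood for each of 6 conditions: untransfected and untreated cells at day 1, and syk-transfected cells left untreated at day 1 and at day 2, given ethanol at day 1, or given ethanol with PonA at day 1 and at day 2. PonA, listed at 10 µM, is a steroid inducer of the ecdysone-inducible expression system that the study used, and it was given together with ethanol. All transfected cells carry the syk construct, whose product is a tyrosine kinase. The labels do not say whether the transfected cells were a single clone or a pool, whether cultures were separate, or how many hours of PonA each array saw. Untransfected cells with PonA, and ethanol alone at day 2, were not analysed here.

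Cadherins are membrane proteins that hold neighbouring cells together through calcium-dependent contacts. Inside the cell their tails bind beta-catenin (CTNNB1) and p120-catenin (CTNND1), and beta-catenin binds alpha-catenin (CTNNA1), which links the complex to actin. Beta-catenin also acts in the nucleus as the co-activator of TCF and LEF factors in Wnt signalling. N-cadherin (CDH2) is the classical cadherin of neural and glial cells, whereas E-cadherin (CDH1) is that of epithelia. Protocadherins form a larger branch with weaker adhesion, many of them in gene clusters whose alpha and gamma members share their last exons.

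The transcription start regions of CDH2, CTNND2 and CTNNA1 are shown because the comparison of transfected with untransfected cells turns on these 3 genes. They were chosen after their values were seen. They cover 250 bases before to 50 after a start, from RefSeq on GRCh38.p14, and the table held 21 of the 35 member genes. Where it lists several starts (2 for CDH2, 2 for CTNND2 and 4 for CTNNA1) the first one listed is printed, and which start these cells used was not measured. CDH2 lies on the minus strand at chr18:28177081-28177380, CTNND2 on the minus strand at chr5:11904397-11904696 and CTNNA1 on the plus strand at chr5:138753175-138753474. Capitals mark GC boxes, GGGCGG on either strand.
CDH2: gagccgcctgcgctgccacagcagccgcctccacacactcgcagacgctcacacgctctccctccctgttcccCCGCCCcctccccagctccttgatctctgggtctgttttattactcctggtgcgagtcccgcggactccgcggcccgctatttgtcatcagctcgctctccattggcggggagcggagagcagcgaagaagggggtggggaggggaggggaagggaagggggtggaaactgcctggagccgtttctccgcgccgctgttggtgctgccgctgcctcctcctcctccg
CTNND2: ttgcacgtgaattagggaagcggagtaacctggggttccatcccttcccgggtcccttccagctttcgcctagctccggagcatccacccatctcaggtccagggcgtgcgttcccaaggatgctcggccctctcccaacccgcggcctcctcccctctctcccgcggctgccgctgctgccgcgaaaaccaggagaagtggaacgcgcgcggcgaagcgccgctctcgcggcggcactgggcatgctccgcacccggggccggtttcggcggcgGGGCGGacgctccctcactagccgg
CTNNA1: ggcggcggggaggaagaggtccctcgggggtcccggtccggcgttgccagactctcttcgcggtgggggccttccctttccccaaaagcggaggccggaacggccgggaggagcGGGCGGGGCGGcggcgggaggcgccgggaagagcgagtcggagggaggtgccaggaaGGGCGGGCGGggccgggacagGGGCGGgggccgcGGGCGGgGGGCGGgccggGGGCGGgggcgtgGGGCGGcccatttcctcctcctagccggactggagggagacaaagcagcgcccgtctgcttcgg

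A GC box was present in 45% of the 35116 start windows of the table. The CDH2 window held 1, starting 177 bases before the transcription start, and the CTNND2 window held 1. The CTNNA1 window held 9, counting overlapping ones, and its GC content was 77.7%, against 67% for CDH2 and 69.3% for CTNND2. The E-box CAGGTG, the site read by Snail and ZEB repressors, and CTTTGA, a core of TCF and LEF sites, were searched on both strands as well. They stand in 20.6% and 12.9% of all windows and in none of these 3. Such matches describe letters in a window and not bound sites.

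The arrays shared a common scale, and the check of the cell type was mixed. Per array the mean signal without the lowest and highest 2% of probe sets was between 149.92 and 149.93. Values this close are those of arrays scaled to a common target, so they do not show that the arrays were comparable. The floor, the 40th percentile of each array under which values are treated as having no order, lay between 22.7 and 26.5 signal units. The 9 spike-in probe sets had a geometric mean of 157 in the untransfected hybridization and of 271 to 501 in the others. The 3' to 5' ratio of beta-actin was 0.960 to 0.987 at day 1 and 1.20 to 1.21 at day 2. That of GAPDH was 1.01 and 1.04 with PonA and 0.939 to 0.964 on the arrays without PonA. The array holds 3 probe sets for SYK, which did not move together. 1 was above the floor only with PonA, at 39.1 and 72.5, 1 gave 22.0 to 73.1 with its highest signal in untreated transfected cells at day 1, and 1 was under the floor throughout. Of 11 markers of glioma and astroglia on the array, 5 were above the floor throughout (GFAP, VIM, GLUL, TNC and CD44) and 2, AQP4 and SLC1A2, on no array. GFAP was at 1533 in untransfected cells and at 103 to 229 in transfected ones. Of 7 epithelial markers KRT8 and KRT18 were above the floor throughout and 4, EPCAM among them, nowhere. Of 8 haematopoietic markers CD3E was above it throughout and 5, PTPRC among them, nowhere. Of 5 oligodendrocyte markers MOG and MAG were above it throughout and 2 nowhere. Of 5 fibroblast markers COL1A1 and COL1A2 were above it throughout and 2 nowhere, with COL1A2 at 1653.5 to 1932.4. The summed signal of the astroglial markers was 10654 in untransfected and 8860 to 10618 in transfected cells. Of 8 neuronal markers TUBB3 was above the floor throughout and 2 nowhere, and their sum was 2447 in untransfected and 1501 to 2245 in transfected cells. In a bulk sample fewer cells of a type and less RNA per cell cannot be told apart.

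A smaller share of the family's probe sets than of all probe sets was above the floor on all 6 arrays. 18 of the 53 probe sets (34%), for 11 genes, were so, against 51.4% of all probe sets. 12 were above it on 1 to 5 arrays and 23 on none. For 14 of the 35 genes no probe set was above the floor on any array.

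Of the type I classical cadherins, CDH2 (both probe sets) and CDH15, the cadherin of muscle, were above the floor throughout. E-cadherin was near or under it. Its first probe set gave 16.9 signal units in untransfected cells, 20.6 to 21.9 on 4 transfected arrays and 33.7 with PonA at day 2, the only array where it passed the floor. The second CDH1 probe set gave at most 3.25. P-cadherin (CDH3) was under the floor on every array.

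Of the type II classical cadherins, CDH11, a cadherin of mesenchymal cells, was above the floor on all arrays with both probe sets. VE-cadherin (CDH5), which joins endothelial cells, gave at most 7.65. CDH8, CDH12, CDH18, CDH19 and CDH22 were under the floor throughout. Both CDH6 probe sets passed the floor on 1 array each, that with PonA at day 2, at 23.0 and 36.0.

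Among the other cadherins and the protocadherins, CDH16, PCDH1 (first probe set) and PCDHGB7 were above the floor throughout. CDH17, PCDHB11, PCDHGA8, PCDHGA12, PCDH8 and PCDH17 were under it on every array. The 8 clustered protocadherin probe sets gave at most 53.3 signal units. Whether signal of these probe sets holds that of neighbours in the cluster, which share sequence, was not tested.

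The catenins were the best detected branch. All 6 CTNNA1 probe sets, CTNNAL1, which encodes a protein related to alpha-catenin, CTNNB1, CTNND1 and the first probe set of CTNNBIP1, an inhibitor of beta-catenin's binding to TCF, were above the floor on all 6 arrays. The neural alpha-catenin CTNNA2 was under it with both probe sets.

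**Figure D1:**
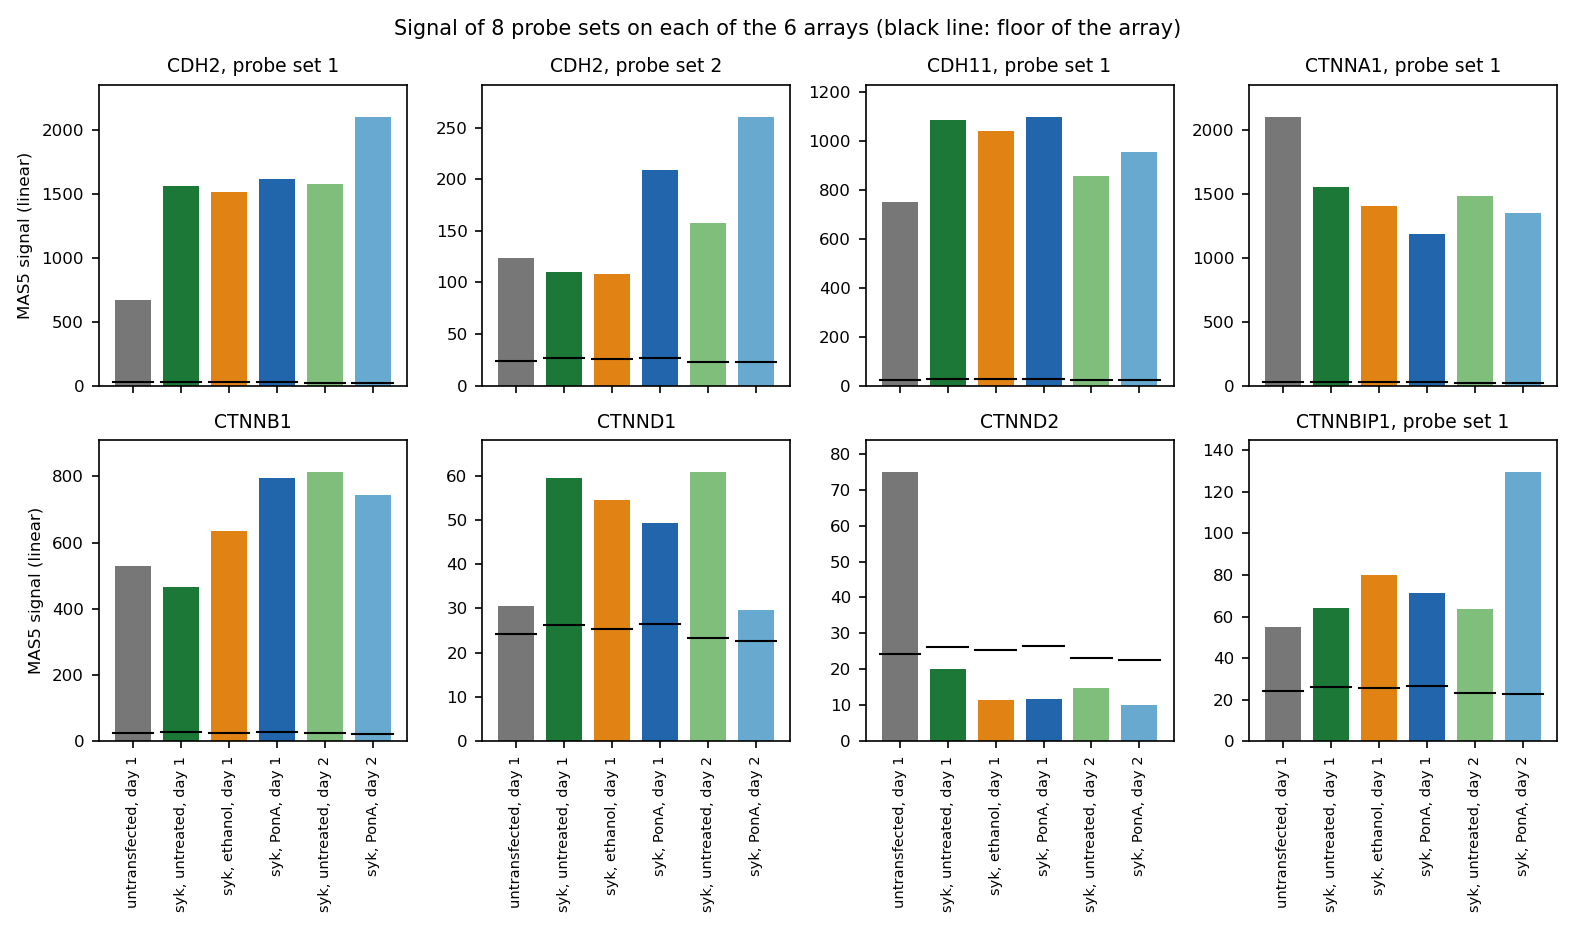
MAS5 signal on a linear scale (vertical axis) of 8 probe sets on the 6 arrays (1 bar per array, no replicates), with a black line at the floor of each array. The first CDH2 probe set is lowest and the CTNND2 and CTNNA1 probe sets are highest on the untransfected array. The second CDH2 probe set is highest on both PonA arrays.

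Transfected cells were set against untransfected cells to see which members differed whatever the treatment. With 1 untransfected array this comparison was not tested. A member was counted where each of the 5 transfected arrays lay at least 2-fold from the untransfected one, the same way and with the higher side above the floor. 1 probe set, of CDH2, was higher and 1, of CTNND2, was lower by this rule. Over 8658 probe sets above the floor on any array the shares were 0.67% higher and 0.762% lower. 30 member probe sets were above the floor on any array.

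The first CDH2 probe set gave 670.5 signal units in untransfected cells. In transfected cells it gave 1562 untreated, 1517 with ethanol and 1622 with PonA at day 1, then 1579 without and 2107 with PonA at day 2. All 5 transfected arrays therefore stood above the untransfected one, by 2.26-fold to 3.14-fold, and 4 of them lay close together. The second CDH2 probe set did not show this. It gave 123 in untransfected cells against 110.2 untreated and 108.5 with ethanol at day 1, and 158 untreated at day 2, so its groups overlapped. A higher CDH2 level in transfected cells thus rests on 1 of 2 probe sets, both designed on the same transcript record.

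CTNND2, a delta-catenin of neural tissue, gave 74.9 signal units in untransfected cells. In transfected cells it gave 20.04 untreated, 11.5 with ethanol and 11.6 with PonA at day 1, then 14.9 without and 10.0 with PonA at day 2, all under the floor. Against the floor the untransfected signal was at least 2.83-fold higher than on every transfected array.

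CTNNA1 differed less, but the same way on all its probe sets. The brightest gave 2108 in untransfected cells. In transfected cells it gave 1554 untreated, 1410 with ethanol and 1190 with PonA at day 1, then 1489 without and 1355 with PonA at day 2. The untransfected signal was 1.36-fold to 1.77-fold that of the transfected arrays on this probe set. On the next 4 probe sets it was 1.30 to 1.54, 1.17 to 1.43, 1.43 to 1.82 and 1.41 to 1.64 times the transfected signals. The dimmest gave 55.8 in untransfected cells and 27.9 to 46.7 in transfected ones. The 6 probe sets read 1 gene and are not 6 independent observations.

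By the weaker rule that the untransfected array lay outside the range of all 5 transfected ones, it stood above them for 8 member probe sets, of CTNNA1, CTNNAL1 and CTNND2. Of the 8658 probe sets above the floor on any array, 30 of them members, 21.2% did so. It stood below them for 4, the first CDH2 probe set, both of CDH11 and the first of CTNNBIP1, with 18.4% over the same 8658. CTNNAL1 gave 141 in untransfected and 73.9 to 132 in transfected cells. For CDH11 the transfected signals were 1.14 to 1.46 times the untransfected one on the first probe set and 1.03 to 1.35 times on the second. The median log2 difference was 0.071 over the 30 members and 0.049 over all probe sets above the floor on any array. The value 0.071 is that of dim members, such as the first CDH6 probe set and PCDHB17P, whose signals were mostly raised to the floor. It reflects the floors of the arrays, 25.3 with ethanol at day 1 and 24.1 in untransfected cells, and not a measured shift. Spike-in signal, GFAP and the neuronal marker NEFL (458 against 10.1 to 26.5) also set the untransfected array apart, and their part in these differences was not tested.

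**Figure D2:**
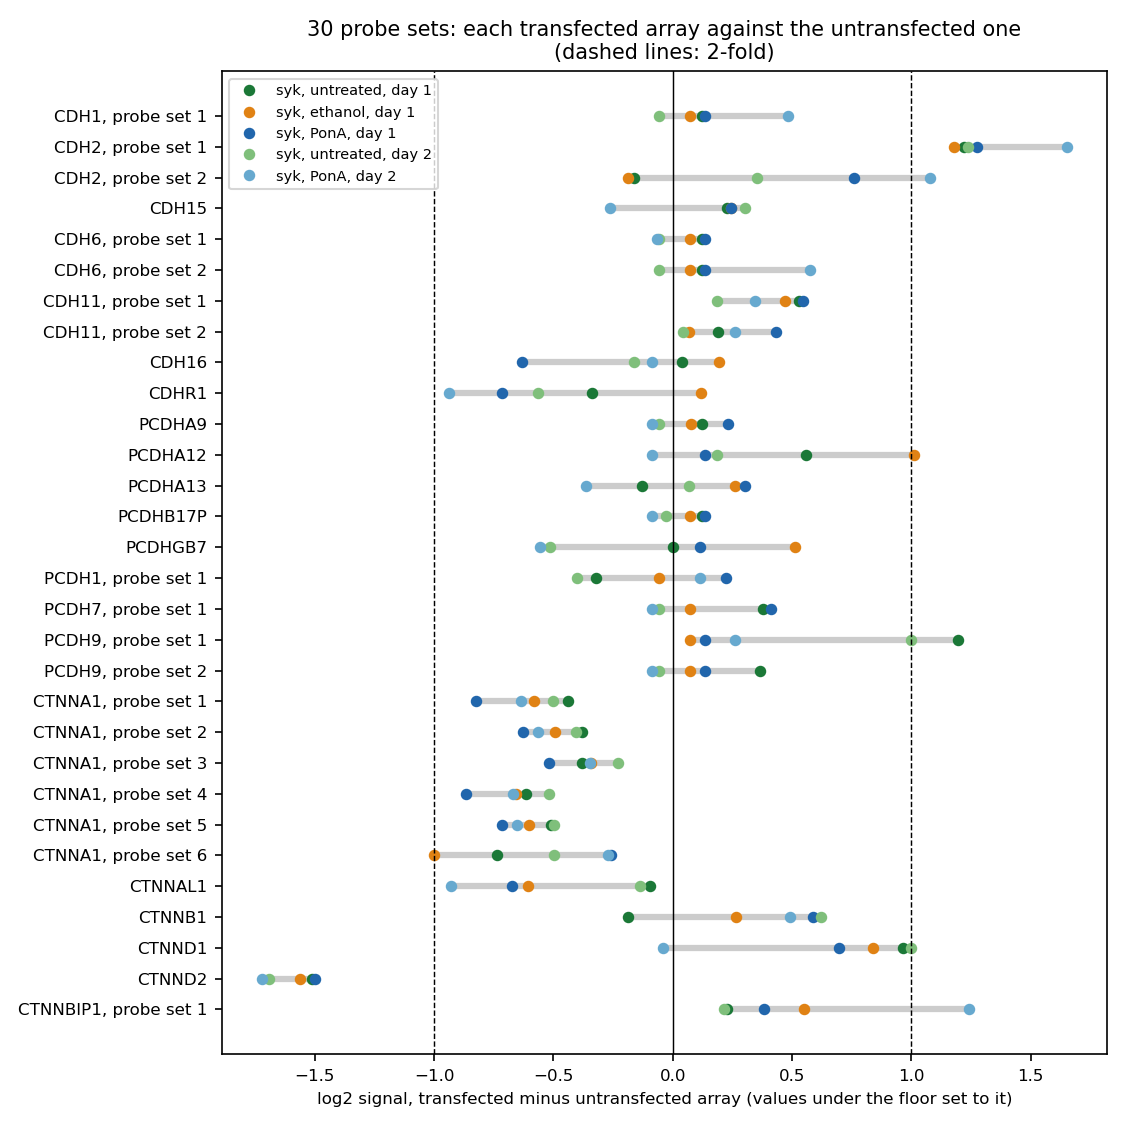
log2 signal of each transfected array minus that of the untransfected array (horizontal axis), for the 30 member probe sets above the floor on any array, with values under the floor set to it. Points are arrays and grey bars their range. The first CDH2 probe set lies past the dashed 2-fold line to the right on all 5 arrays, and CTNND2 past it to the left, where its values are bounds.

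PonA went with a higher level of 1 member probe set, the second of CDH2, and of no other member past the threshold. Its signal was 110.2 untreated, 108.5 with ethanol and 209 with PonA at day 1, then 158 without and 261 with PonA at day 2. Both PonA arrays stood above all 3 arrays of transfected cells without PonA. At day 1 the PonA signal was 1.92 times that with ethanol and 1.90 times that of untreated cells, and at day 2 it was 1.65 times that of untreated cells. The log2 PonA effect over both days was 0.84 ± 0.17 (SE), or 1.80-fold, in limma (adjusted p = 0.0421).

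This call sat close to the threshold. It was lost with quantile normalization (adjusted p = 0.0534), with a floor at the 20th percentile (adjusted p = 0.0779), with no filter on low values (adjusted p = 0.0578), and when some arrays were left out. Without the untreated array of day 1 the adjusted p was 0.0536, without the PonA array of day 1 it was 0.306, and without either array of day 2, which gives the same fit, it was 0.171 (limma). The effect stayed between 0.73 and 0.93 in these fits. Leaving out any 1 array leaves 1 residual degree of freedom, and where 1 PonA array is left it is assumed to vary like the other arrays. The first CDH2 probe set had an effect of 0.22 ± 0.18 (SE, limma adjusted p = 0.568), with 1.07-fold over ethanol at day 1 and 1.33-fold over untreated at day 2.

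The fit compared the 2 PonA arrays with the 3 transfected arrays without PonA, allowing for the day, over 7942 probe sets that were above the floor on at least 2 of these 5 arrays. Its 2 residual degrees of freedom hold the ethanol difference at day 1 and the difference of the PonA effects between days. Its p-values therefore do not measure the spread between repeated cultures. 24 member probe sets, of 17 genes, were tested and 29 were too dim. 1 was called higher and 0 lower in limma, against 2.69% higher and 2.37% lower over all probe sets tested. At an unadjusted p under 0.05 there were 4 members, 2 higher and 2 lower, or 16.7%, against 19.5% of all probe sets tested. The median log2 effect of the 24 was -0.12, and that of all probe sets tested was 0.005.

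The other cadherins had no effect past the threshold. CDH11 had log2 effects of 0.09 ± 0.16 (SE, limma adjusted p = 0.819) and 0.27 ± 0.17 (SE, limma adjusted p = 0.451) on its probe sets. Its brighter probe set gave 751 in untransfected cells, and in transfected cells 1085 untreated, 1041 with ethanol and 1098 with PonA at day 1, then 855 without and 955 with PonA at day 2. Its PonA signal at day 1 was the highest of all arrays and that at day 2 lay between the others of transfected cells. The second probe set gave 737 untreated, 678 with ethanol and 872 with PonA at day 1, then 665 without and 774 with PonA at day 2. Both its PonA signals were above all 3 others of transfected cells. CDH15 had an effect of -0.24 ± 0.20 and was low only with PonA at day 2, at 75.8 against 107 to 112 on the other transfected arrays. Its effect was 0.01 without either array of day 2 and -0.56 without the PonA array of day 1. CDH16, a kidney cadherin, had an effect of -0.40 ± 0.23 and was low only with PonA at day 1, at 49.5 against 68.5 to 87.7. Its effect was 0.07 without that array and -0.75 without either array of day 2. CDHR1, a cadherin of photoreceptors, had an effect of -0.51 ± 0.21, with an unadjusted p of 0.0463 and a limma adjusted p of 0.246. CDHR1 gave 47.2 with ethanol and 34.4 untreated against 12.9 with PonA at day 1, and 29.4 untreated against 19.2 with PonA at day 2. Both its PonA signals were under the floor.

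Of the protocadherins PCDH1 had the largest positive effect, 0.46 ± 0.18 (SE), with a limma adjusted p of 0.224 and an unadjusted p of 0.0389. It gave 182 untreated, 218 with ethanol and 265 with PonA at day 1, then 172 without and 246 with PonA at day 2. Both PonA signals were above all 3 others of transfected cells. The first PCDH9 probe set had the most negative effect, -0.60 ± 0.34 (SE, limma adjusted p = 0.398). Its signal was 55.3 untreated, 7.32 with ethanol and 9.50 with PonA at day 1, then 48.2 without and 28.9 with PonA at day 2. The ethanol array was as low as the PonA array of that day. Without the ethanol array the PCDH9 effect was -0.90 ± 0.21 (SE) and passed the threshold (limma adjusted p = 0.0349). The second PCDH9 probe set was above the floor only in untreated cells at day 1, at 31.1. The third, designed on the same transcript record as the first, gave 1.95 to 4.22 and was under the floor on every array. PCDHA12 had an effect of -0.49 ± 0.21 (limma adjusted p = 0.277). Both its PonA signals, 21.5 and 6.82, were under the floor, which limits this value. With a floor at the 20th percentile it was -1.41 (limma adjusted p = 0.0966) and on the log2(value + 16) scale -0.75 (limma adjusted p = 0.0614). The effects of PCDHA9, PCDHA13, PCDHGB7 and PCDH7 lay between -0.10 and 0.09.

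Catenin levels did not change past the threshold. CTNNB1 gave 528 in untransfected cells, and in transfected cells 464 untreated, 636 with ethanol and 794 with PonA at day 1, then 812 without and 743 with PonA at day 2. The PonA arrays were high at day 1 and not at day 2, and untreated cells at day 2 gave the highest signal, so the groups overlapped. The log2 effect was 0.26 ± 0.24 (SE, limma adjusted p = 0.630). The CTNNA1 effects were -0.24 to -0.14 on its 5 brighter probe sets and 0.45 on the dimmest, with limma adjusted p of 0.272 or more. CTNNAL1 had an effect of -0.52 ± 0.23 (SE, limma adjusted p = 0.275), at 128 untreated and 73.9 with PonA at day 2.

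CTNND1, the p120-catenin gene, gave 30.4 in untransfected cells. In transfected cells it gave 59.4 untreated, 54.4 with ethanol and 49.4 with PonA at day 1, then 60.8 without and 29.6 with PonA at day 2. Its log2 effect was -0.56 ± 0.23 (SE, unadjusted p = 0.0488, limma adjusted p = 0.252), and the low array was that of day 2. Without either array of day 2 it was -0.20, and without the PonA array of day 1 it was -1.04. A brighter probe set annotated to both CTNND1 and TMX2-CTNND1 went the other way, with 0.47 ± 0.19 (SE, limma adjusted p = 0.247) and 1.19-fold higher signal with PonA at day 2. CTNNBIP1 gave 64.1 untreated, 80.2 with ethanol and 71.4 with PonA at day 1, then 63.6 without and 129 with PonA at day 2. Its effect over both days was 0.44 ± 0.27 (SE, limma adjusted p = 0.451).

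**Figure D3:**
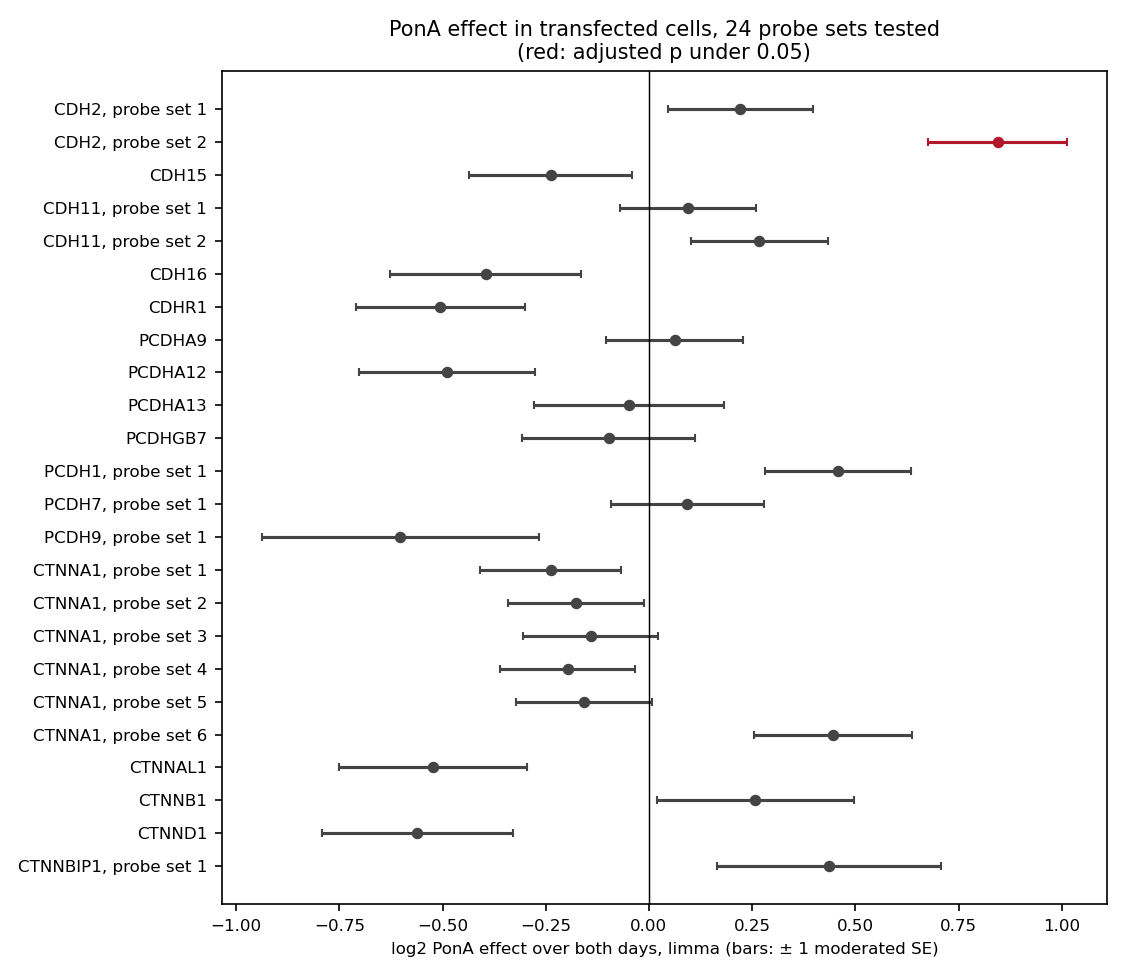
log2 PonA effect over both days from the limma fit (horizontal axis), with bars of 1 moderated SE on either side, for the 24 member probe sets tested. The second CDH2 probe set, in red at 0.84, is the only one with an adjusted p under 0.05. The CTNNA1 probe sets lie together at -0.24 to -0.14 except the dimmest, at 0.45.

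Single arrays were also set against each other, with at least 2-fold as the rule and no test. PonA over ethanol at day 1 put 0 of 23 member probe sets 2-fold apart, against 5.62% of all compared. PonA over untreated at day 1, which shares its PonA array with the former, put 1 of 25 apart, against 6.7%. It was the first PCDH9 probe set, at least 2.09-fold lower. PonA over untreated at day 2 put 2 of 26 apart, against 8.71%: CTNNBIP1 2.04-fold higher and CTNND1 2.05-fold lower on the probe set read as CTNND1 alone. The second CDH2 probe set was under 2-fold in all 3.

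Ethanol alone at day 1 put 1 of 25 apart, against 2.19% of all compared. It was again the first PCDH9 probe set, at least 2.18-fold lower than untreated. Between day 1 and day 2, 0 of 25 were 2-fold apart in untreated cells, against 3.18%, and 0 of 25 in PonA-treated cells, against 2.97%. The nearest in untreated cells was CTNNB1, 1.75-fold higher at day 2, and among PonA arrays CTNNBIP1, 1.81-fold higher at day 2. A term for PonA by day in limma, added after seeing the data and leaving 1 residual degree of freedom, asked whether the effect differed between days. Of the 7942 probe sets 0 were called, and 334 had an unadjusted p under 0.05, of which 1 was a member. That member was CTNNBIP1, with a term of 1.03 ± 0.43 (SE, unadjusted p = 0.0447).

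Around the members, 6 lists of related genes were followed, each gene by its brightest probe set. Calls are those of the limma fit over all probe sets, so the shares of 2.69% higher and 2.37% lower hold here as well. Of 20 tested partners of the adherens junction 1 rose and 0 fell, with 5 at an unadjusted p under 0.05 and a median log2 effect of 0.13. The one that rose was NECTIN3, an immunoglobulin-like adhesion receptor that works beside cadherins. It gave 42.4 untreated, 49.0 with ethanol and 100.6 with PonA at day 1, then 21.8 without and 103 with PonA at day 2. The untreated value of day 2 was under the floor and was raised to it in the fit. Both PonA signals exceeded all others, and the effect was 1.57 ± 0.26 (SE, limma adjusted p = 0.0237). Without either array of day 2 it was 1.14 and was not called (limma adjusted p = 0.107). Plakoglobin (JUP), the close relative of beta-catenin, had an effect of 0.16 ± 0.19 (limma adjusted p = 0.719).

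Of 8 tested desmosomal and atypical cadherins 0 were called in limma and 2 had an unadjusted p under 0.05, with a median of 0.32. The smallest p was that of FAT1, a giant atypical cadherin, at 0.65 ± 0.20 (SE, limma adjusted p = 0.142). Of 9 tested repressors of CDH1 and mesenchymal genes 0 were called in limma and 4 had an unadjusted p under 0.05, with a median of -0.13. TWIST1, a transcription factor of mesenchymal cells, had the smallest p, with an effect of -0.69 ± 0.18 (SE, limma adjusted p = 0.0861). ZEB1, a repressor of CDH1, had an effect of 0.80 ± 0.21 the other way (SE, limma adjusted p = 0.0862).

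Of 32 tested genes of the Wnt and beta-catenin pathway 4 rose and 1 fell, with 9 at an unadjusted p under 0.05 and a median of 0.011. The ligand gene WNT5A gave 33.9 untreated, 34.9 with ethanol and 100.4 with PonA at day 1, then 37.4 without and 111 with PonA at day 2. Its groups were well apart, with an effect of 1.56 ± 0.16 (SE, limma adjusted p = 0.00536), and its other probe set had one of 1.05 ± 0.22 (SE, limma adjusted p = 0.0496). TCF7L2, a nuclear partner of beta-catenin, gave 232 untreated, 172 with ethanol and 442 with PonA at day 1, then 117 without and 432 with PonA at day 2, an effect of 1.46 ± 0.24 (limma adjusted p = 0.0240). SFRP1, a secreted Wnt antagonist, had an effect of 1.08 ± 0.20 (limma adjusted p = 0.0347) and the Wnt receptor gene FZD7 one of 0.79 ± 0.16 (limma adjusted p = 0.0489). The receptor gene FZD2 fell, with an effect of -0.98 ± 0.17 (limma adjusted p = 0.0260) and -0.92 ± 0.20 on its other probe set (limma adjusted p = 0.0547). The genes that rose hold a ligand, a receptor and a factor of the pathway as well as an antagonist. TCF7L2, SFRP1, FZD7 and FZD2 lost their call without either array of day 2 (limma adjusted p 0.133 to 0.289), and SFRP1, FZD7 and FZD2 also without the PonA array of day 1 (limma adjusted p 0.198 to 0.233). FZD7 lost it too without the untreated array of day 1 (limma adjusted p = 0.0657), with limma-trend (0.0591), on the log2(value + 16) scale (0.0508), and under quantile normalization or median centring (0.0604 and 0.0606). Of the 8 genes called in these lists, NECTIN3, TCF7L2, SFRP1, FZD7, FZD2, MMP7 and BIRC5 lost their call with a floor at the 20th percentile and with no filter on low values, and WNT5A kept it.

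Of 14 tested direct targets of beta-catenin and TCF 0 rose and 2 fell in limma, with 5 at an unadjusted p under 0.05 and a median of 0.22. Those that fell were the matrix protease gene MMP7, with an effect of -1.89 ± 0.31 (limma adjusted p = 0.0230), and BIRC5, with one of -1.60 ± 0.29 (limma adjusted p = 0.0306). BIRC5 encodes survivin, which also works in mitosis. Without either array of day 2 neither was called (limma adjusted p 0.112 and 0.115). CCND1, the cyclin D1 gene, gave 503 in untransfected and 122 to 231 in transfected cells, 2.17-fold to 4.12-fold less, and its other 2 probe sets met the same rule. CCND1 was the 1 gene of this list that did, and with PonA its effect was 0.19 ± 0.25 (limma adjusted p = 0.752).

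Of 12 tested genes of cadherin cleavage and turnover 0 rose and 1 fell in limma, MMP7 again, with 6 at an unadjusted p under 0.05 and a median of 0.22. NCSTN, the nicastrin subunit of the gamma-secretase that cleaves cadherin stubs, met the transfection rule. It gave 630.2 in untransfected cells and 1337 to 1827 in transfected ones, 2.12-fold to 2.90-fold more. Among the markers of endothelium KDR and TEK were higher with PonA. The summed signal over 6 genes was 78.5 to 115 in transfected cells without PonA and 350.5 to 497 with it. Of the latter KDR gave 236 and 418, and TEK 61.0 and 44.6. PECAM1 overlapped, at 37.6 and 15.5 with PonA and 19.5 to 47.3 without. CDH5, VWF and TIE1 were under the floor on every array. The neuronal markers summed to 1501 to 1869 without PonA and 2125 to 2245 with it. TUBB3 gave most of that sum, with 2017 and 2144 on the PonA arrays. NEFL was at 23.6 to 26.5 without PonA and at 12.1 and 10.1 with it. Its PonA and ethanol values were under the floor and its untreated ones just above it, so they give no clear order. The astroglial sum was 8860 to 9651 without and 9842 to 10618 with PonA. SLC1A3 gave 22.8 to 38.8 without and 193 and 225 with PonA. GLUL gave 531 to 993 without and 1306 and 1434 with PonA, and CD44 1326 to 1785 without and 1801.8 and 2129.5 with it. TNC was lower, at 834 to 1060 without and 789 and 767 with PonA. VIM, the largest part of the astroglial sum, overlapped, at 5430 to 6458 without and 6239 and 4919 with PonA. GFAP overlapped too, at 103 to 221 without and 193 and 229 with PonA, as did S100B, ALDH1L1 and CHI3L1. The epithelial sum was 622 to 664 without and 537 to 603 with PonA. The part of these markers and of the GAPDH ratio in the PonA effects, that of CDH2 included, was not tested.

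**Figure D4:**
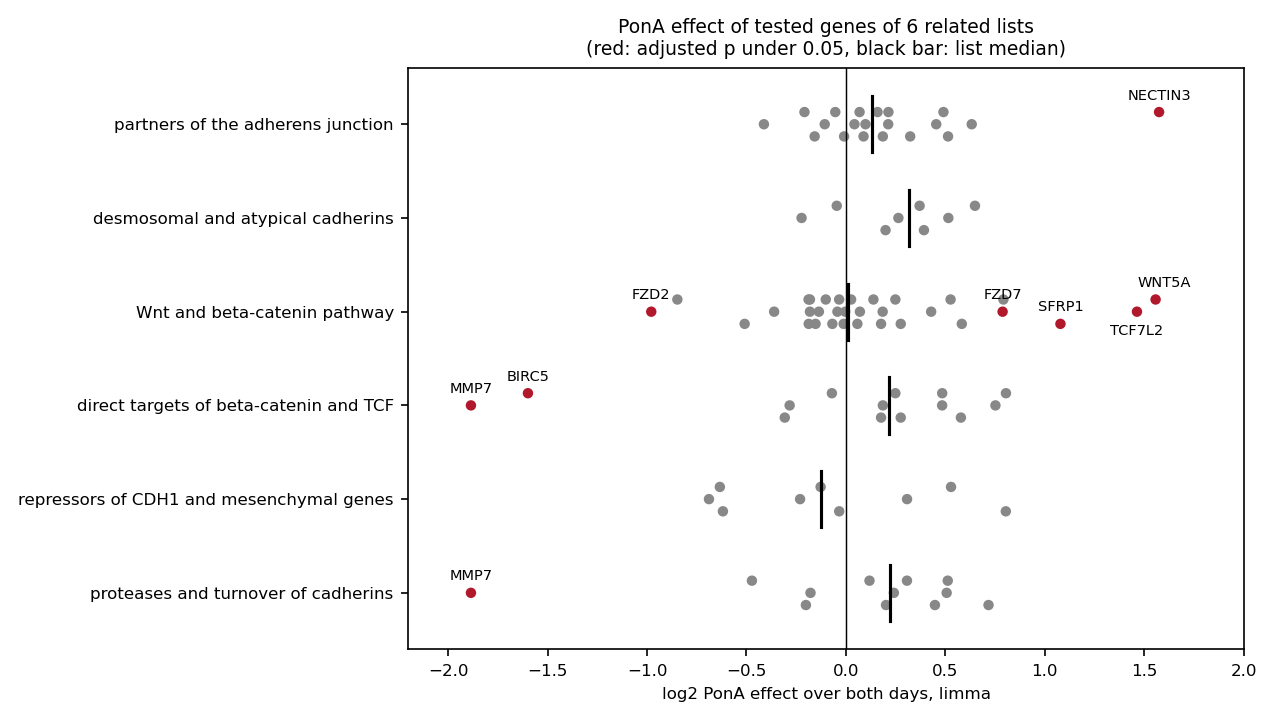
log2 PonA effect over both days from the limma fit (horizontal axis) of the tested genes of the 6 related lists, 1 point per gene, with vertical offsets only to separate points. Black bars mark list medians and red points have an adjusted p under 0.05. NECTIN3 and WNT5A lie furthest right and MMP7 furthest left.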

How the data were processed

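Messenger RNA was measured on 6 arrays, 1 per condition. MAS5 is named per the submitters' processing notes, with its version and a genome build not given in the sources used here. The deposited values are MAS5 intensity, a signal per probe set on a linear scale, and their trimmed mean was alike on all arrays. No detection calls were used. Symbols came from the platform annotation, updated through Entrez identifiers to RefSeq (GRCh38.p14), which changed 0 member symbols.

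On each array the 40th percentile served as a floor, to which lower signals were raised before taking log2. PonA effects came from limma 3.58.1 in R 4.3.3 (terms PonA and day, 5 transfected arrays, Benjamini-Hochberg over 7942 probe sets, threshold 0.05), tested on simulated data. Other comparisons used a 2-fold rule. Folds against a value under the floor are bounds. Members with values on every array are those called, those meeting the transfection rule, CDH1, CDH2, CDH11, CTNNA1, CTNNB1 and CTNND1, and others chosen after their values were seen. From each list every called gene, up to 4 in each direction, is named, or that with the smallest p. CCND1 and NCSTN are named because they met the transfection rule. JUP and ZEB1 fall outside these rules and were chosen afterwards. The members and lists were chosen with earlier results of these data known. Alternatives changed the floor, filter, scaling, fold, model and arrays used.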

Additional observations from a re-analysis of the deposited data

Results flagged for a closer look

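A signal was found in data outside the members: of the 4 probe sets annotated with several symbols that include a cadherin or catenin, 1 was above the floor on all 6 arrays. It is annotated to CTNND1 and to TMX2-CTNND1, a readthrough transcript of CTNND1 and its neighbour TMX2. Its lowest signal was 318, with ethanol at day 1. It gave 320 in untransfected cells and 381 untreated and 536 with PonA at day 1, then 392 without and 467 with PonA at day 2. The log2 PonA effect was 0.47 ± 0.19 (SE, limma adjusted p = 0.247), where the probe set read as CTNND1 alone had one of -0.56 ± 0.23 (SE, limma adjusted p = 0.252). The other 3, on protocadherins, were under the floor throughout. Groups of 1 array leave no sample to set apart as an outlier.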

How the results depend on the processing

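No paired analysis was possible because each group has 1 array, so that no replicate numbers pair samples, and the day is already a term of the fit. The count of members called higher with PonA, 1 as reported, was 0 with a floor at the 20th percentile, with no filter on low values and with quantile normalization, and 0 to 1 when arrays were left out in turn. The count called lower, 0 as reported, was 1 (PCDH9) with a separate ethanol term, which equals leaving out the ethanol array, and 0 to 1 when arrays were left out. Over all probe sets the PonA calls numbered 402 as reported, 219 with the lower floor, 33 with no filter, 658 with a separate ethanol term, 626 with limma-trend and 128 to 658 when arrays were left out. Counts of members 2-fold apart between single arrays depended on the floor and the fold. With a floor at the 20th percentile they were 3, 4 and 5 for PonA over ethanol at day 1, over untreated at day 1 and over untreated at day 2, 3 for ethanol, and 2 and 4 for the days in untreated and PonA-treated cells. With a fold of 1.5 they were 5, 4 and 6 for the PonA comparisons and 1 and 4 for the days. On the log2(value + 16) scale PonA over ethanol gave 1 and PonA over untreated at day 2 gave 1, the latter gave 0 with quantile normalization, and the PonA days gave 1 with median centring. The counts of 1 higher and 1 lower against untransfected cells moved under none of the alternatives run. Leaving out a transfected array or using a fold of 1.5 can only loosen that rule, so these runs could not lose a probe set. Every run used the same untransfected array. Of 90 transfection differences under alternatives 86 stayed the same, 4 moved and 0 were reversed. Of 408 PonA effects of the 24 members and 10 listed genes under 12 alternatives, 363 kept their side of the threshold, 43 lost a call and 2 gained one, with no called effect reversed. As reported only 1 of the 24 members was called, so most of the 363 are effects that were not called and stayed so. The share of calls that were lost is therefore much larger than 43 of 408. Beyond the 7 lost calls of the second CDH2 probe set, the lost calls were those of the listed genes other than WNT5A, which kept its call in all 12. Signals near the floor and 1 array per condition limit the precision.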
